A study of Rattus norvegicus with 32 samples.

Results

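The genes described here encode 6 lysosomal proteases of the cathepsin family (Ctsb, Ctsc, Ctsd, Ctsh, Ctsl and Ctss), the GM2 activator protein (Gm2a) and the lysosomal membrane protein Lamp1. Every probe set with exactly 1 gene symbol, that symbol being one of these 8, was taken. This gave 14 of the 8799 probe sets of an Affymetrix rat array. All 8 genes were on the array, and 12 of the 14 probe sets were bright enough to be tested, among 5040 tested in all. The series profiled normal mammary gland of 6 groups of rats under a title about inherited susceptibility to mammary cancer, with 5 arrays per group and 1 RNA sample per array. The groups were the F1 hybrid of Cop and F344, its parent strains Cop and F344, and the strains ACI, BUF/N and WF. The labels name no treatment, transgene or tumour in any group, and give no age, sex or oestrous stage. Nor do they say whether the samples of a group are separate animals, and the p-values cover only the spread among the arrays of a group, which may be technical. The samples are called F1 1 to F1 5 and so on after the labels, and 2 further arrays held pools of Cop and of F344. Cop rats are known for their resistance to mammary tumours caused by carcinogens.

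Lysosomes are acidic compartments in which proteins, lipids and sugars delivered from outside or inside the cell are broken down. The cathepsins are made as inactive precursors, sorted to the lysosome and cut to their active form there. Ctsb, Ctsl, Ctss and Ctsh are cysteine proteases, Ctsc (dipeptidyl peptidase 1) is a cysteine exopeptidase that removes dipeptides and activates serine proteases of immune cells, and Ctsd is an aspartic protease. Gm2a is not a protease. It lifts the ganglioside GM2 out of membranes so that beta-hexosaminidase can cut it. Lamp1 is a heavily glycosylated protein that lines the inner face of the lysosomal membrane. In mammary gland these proteins act in epithelium and in macrophages, and cathepsin D in particular is known for its high amounts in breast cancer and in the involuting gland.

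Many lysosomal genes are known to be switched on by the factor TFEB, which binds a palindrome with the core CACGTG, while GAGGAA is a core bound by the myeloid factor PU.1 and a pair of GAAA parted by 2 bases is an interferon-response motif. Promoters of RefSeq on the build GRCr8, from 250 bases before to 50 bases after each start, were searched on both strands for CACGTG, for the longer TCACGTGA that contains it, for GAGGAA and for the GAAA pair. The table held 7 of the 8 genes, Ctsb being the exception. Of all 33469 promoters in the table, 6.418% held CACGTG, 0.7768% TCACGTGA, 27.6% GAGGAA and 3.92% the GAAA pair. Among the 7, CACGTG was found in Lamp1 and Ctsd, and each of these also held TCACGTGA. GAGGAA was found in Ctsc, Gm2a, Ctsh and Ctss, the GAAA pair in Ctss and Lamp1, and none of the 4 in Ctsl. The promoters of Lamp1 and Ctsd are shown for their CACGTG matches and those of Gm2a and Ctsc because these genes differed most between strains, with matches to any of the 4 motifs in capitals (TTCCTC is GAGGAA on the other strand, and the first capitals of Lamp1 are the GAAA pair on the other strand).
Lamp1, chr16:83075014-83075313, minus strand: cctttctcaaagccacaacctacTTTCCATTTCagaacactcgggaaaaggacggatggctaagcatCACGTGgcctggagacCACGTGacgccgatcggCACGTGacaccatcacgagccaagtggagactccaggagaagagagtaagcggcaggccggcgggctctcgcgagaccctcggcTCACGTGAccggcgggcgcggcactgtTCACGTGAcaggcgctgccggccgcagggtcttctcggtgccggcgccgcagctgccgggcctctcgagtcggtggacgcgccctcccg
Ctsd, chr1:206968772-206969071, minus strand: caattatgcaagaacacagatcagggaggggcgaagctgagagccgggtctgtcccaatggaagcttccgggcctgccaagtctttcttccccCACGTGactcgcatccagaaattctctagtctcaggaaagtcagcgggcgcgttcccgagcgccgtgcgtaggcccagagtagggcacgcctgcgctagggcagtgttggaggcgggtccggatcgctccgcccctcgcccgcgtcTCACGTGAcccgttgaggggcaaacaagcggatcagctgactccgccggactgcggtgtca
Gm2a, chr10:39719669-39719968, plus strand: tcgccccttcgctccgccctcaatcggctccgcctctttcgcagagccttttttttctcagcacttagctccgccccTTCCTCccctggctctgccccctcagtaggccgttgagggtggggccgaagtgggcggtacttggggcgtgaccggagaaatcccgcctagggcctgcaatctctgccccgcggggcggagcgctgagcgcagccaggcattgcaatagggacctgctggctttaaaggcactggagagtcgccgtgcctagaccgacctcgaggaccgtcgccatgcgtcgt
Ctsc, chr1:151440799-151441098, plus strand: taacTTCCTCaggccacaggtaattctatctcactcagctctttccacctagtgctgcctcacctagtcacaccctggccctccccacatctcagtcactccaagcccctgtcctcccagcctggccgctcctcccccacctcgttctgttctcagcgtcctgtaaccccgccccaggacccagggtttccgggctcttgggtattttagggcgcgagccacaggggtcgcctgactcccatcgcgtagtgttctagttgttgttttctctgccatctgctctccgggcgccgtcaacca
Lamp1 held 5 copies of CACGTG, beginning 183, 167, 150, 65 and 38 bases before the start, and the 2 nearest the start lay within TCACGTGA. Ctsd held 2 copies, beginning 157 and 10 bases before the start, and the nearer one lay within TCACGTGA. Gm2a and Ctsc held 1 GAGGAA each and no CACGTG in these windows. A match describes the letters only, and binding was not measured.

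Signals were linear values from Affymetrix Microarray Suite 5.0 and were compared on the log2 scale with limma, in a single fit of the 6 groups. Benjamini-Hochberg adjustment ran over all 5040 probe sets within each comparison, and a difference with an adjusted p below 0.05 is called. Array medians ran from 65.8 to 102. Arrays of a group correlated at r = 0.846 to 0.978 over the tested probe sets. F1 2 and F1 3 stood apart from the other F1 arrays (r = 0.846 to 0.893, but 0.959 with each other), as did ACI 2 and ACI 5 from the other ACI arrays (0.876 to 0.914, and 0.951 with each other). For the cathepsins, Gm2a and Lamp1, calls between groups that were lost or gained without these 4 arrays are given with and without them. The ratios between probe sets, the marker lists and the values of other genes are given from all arrays only. Those results may depend on these 4 arrays. Markers of the labelled tissue were present: 9 of 10 luminal epithelial markers on the array and all 6 milk protein genes were bright enough to be tested.

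By the F test over the 6 groups, 8 of the 12 probe sets differed, against 51.8% of all probe sets tested. They covered Gm2a, Ctsc (both probe sets), Ctsb, Ctsd (both), Lamp1 and Ctsl, while Ctsh, Ctss, the dimmer probe set of Ctsl and a dim one of Lamp1 did not pass. Over the 15 pairs of groups, which share samples, 51 of 180 differences were called, against 15.8% for all probe sets. For every probe set, no group differed by the test from the next one in the order of its means.

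In the comparisons of F1 with single strains, 6 of the 12 probe sets were called against ACI, each higher in F1, where 29.1% of all probe sets were called and 12.4% were called higher. Against BUF/N 4 were higher and 1 lower in F1 (17.3% of all called), and against WF likewise 4 and 1 (15.2%). Against Cop 1 was higher and 1 lower in F1 (26.3%), and against F344 1 was higher and 2 lower (31.7%). These counts depend on the 4 arrays that stood apart. Without them 0 of the 12 were called between F1 and BUF/N, where 628 of all probe sets still were. Of all probe sets, 545 were then called between F1 and ACI, 546 for WF, 1111 for Cop and 1049 for F344. Among the 12, the calls of F1 were 4 against ACI, 4 against WF, 3 against Cop and 3 against F344. Between the parents, 3 were lower in Cop than in F344 and none was higher, where 3.45% of all were called and 1.77% were called lower. These 3 were Gm2a and the 2 probe sets of Ctsc, so they stand for 2 genes.

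Cop against ACI gave 1 call, higher in Cop (7.58% of all called, 3.27% higher). Cop had 2 probe sets higher and 3 lower than BUF/N (23.3% of all called), and 2 higher and 3 lower than WF (12.8%). F344 had 4 higher and none lower than ACI (12.3% of all called, 4.09% higher), 3 higher and 1 lower than BUF/N (23.8%), and 3 higher and none lower than WF (11.3%, 4.56% higher). ACI had 2 lower than BUF/N (13.6% of all called, 6.29% lower) and 3 lower than WF (7.18%, 3.69% lower). BUF/N against WF gave 0 calls by limma (2.22% of all called), with 1 of the 12 at an unadjusted p below 0.05. The counts against ACI, BUF/N and WF depend on how arrays are scaled: centred on array medians, the median of all probe sets for F1 minus ACI was 0.23, against -0.08 as reported here, and 81% of all calls were higher in F1 instead of 42.5%. The 12 probe sets then had 8 higher and none lower in F1 than in ACI, and 9 higher and none lower in F344 than in ACI (78.1% of all calls higher in F344, instead of 33.3%). With quantile normalization these counts were 5 and 2, with none lower, and no call of the 12 turned round under either scaling.

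**Figure D1:**
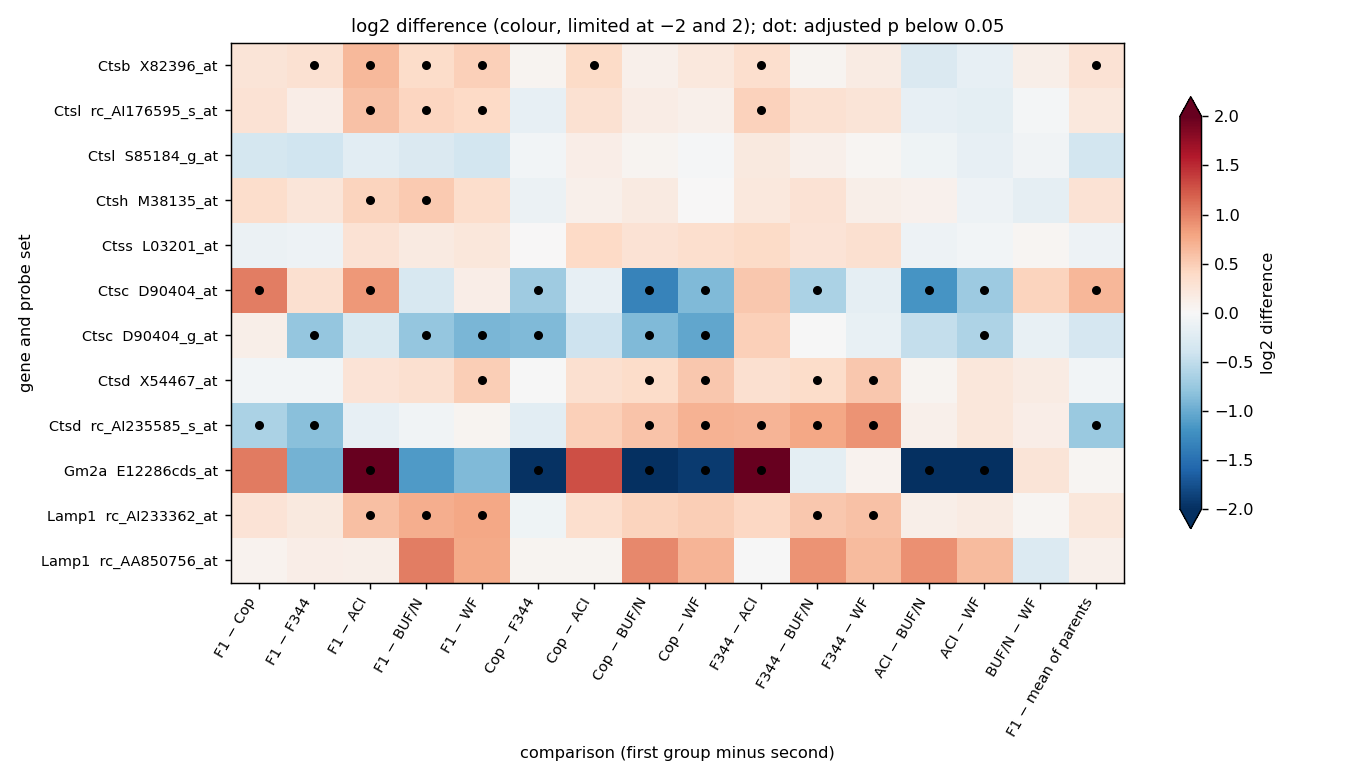
Log2 difference of the mean log2 signals (colour, first group minus second, red where the first is higher, limited at -2 and 2) for the 12 tested probe sets (rows) in 15 pairs of groups and in F1 minus the mean of its parents (columns). Dots mark adjusted p below 0.05. Gm2a has the deepest colours, the 2 rows of Ctsc part in the F1 columns, and the rows of Ctsb, of Ctsl by rc_AI176595_s_at and of Lamp1 by rc_AI233362_at are red where F1 is set against ACI, BUF/N and WF, while the row of Ctsl by S85184_g_at is blue there.

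Gm2a (probe set E12286cds_at) spanned the widest range of the 12 tested probe sets, with an 8.77-fold ratio between its highest and lowest group mean. Its signals were 1350.5, 252.5, 339, 1465 and 1219 in F1, 478, 377, 252, 377 and 334 in Cop, and 1449, 1116, 1397, 1638 and 1457 in F344. They were 153, 142, 340.1, 288.5 and 31.2 in ACI, 1751, 2196, 900, 1901 and 1620.5 in BUF/N, and 2027.5, 1552, 665.5, 1262 and 1620.3 in WF. Every Cop and ACI array lay below every F344, BUF/N and WF array. The F1 arrays were spread over both levels: F1 2 and F1 3 lay within the range of Cop, and F1 1, F1 4 and F1 5 within that of F344.

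Gm2a differed among the groups (limma F test, adjusted p = 3.48e-06), ranking 133rd of 5040. It was lower in Cop than in F344 (log2 difference -1.98, SE 0.478, adjusted p = 0.0140), with means of 364 ± 81.8 in Cop and 1411 ± 189 in F344 (SD, n = 5 each). Cop was also below BUF/N (log2 difference -2.17, SE 0.478, adjusted p = 0.00140) and WF (log2 difference -1.91, SE 0.478, adjusted p = 0.00696). ACI had the lowest mean, 191 ± 124, and was below BUF/N (log2 difference -3.46, SE 0.478, adjusted p = 1.02e-05), whose mean was 1674 ± 483, and below WF (log2 difference -3.19, SE 0.478, adjusted p = 3.75e-05), whose mean was 1425 ± 505. F344 was higher than ACI (log2 difference 3.26, SE 0.478, adjusted p = 2.41e-05). Cop and ACI did not differ past the threshold (log2 difference 1.29, SE 0.478, adjusted p = 0.0952), though they did without ACI 3 (1.59, adjusted p = 0.0403) and after centring on array medians (adjusted p = 0.0484). ACI 5, at 31.2, is one of the 4 arrays that stood apart. With these 4 left out, ACI minus BUF/N was -2.70 (adjusted p = 8.32e-07), ACI minus WF -2.44 (adjusted p = 3.82e-06), F344 minus ACI 2.51 (adjusted p = 2.62e-06) and Cop minus ACI 0.53 (adjusted p = 0.284), so the called differences were smaller but still called.

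The F1 mean of Gm2a, 925 ± 582, had the widest SD of the 6 groups for this gene. F1 was higher than ACI (log2 difference 2.32, SE 0.478, adjusted p = 0.000773), though F1 2 at 252.5 and F1 3 at 339 lay within the ACI range. F1 did not differ past the threshold from Cop (log2 difference 1.03, SE 0.478, adjusted p = 0.110) or F344 (log2 difference -0.94, SE 0.478, adjusted p = 0.134), and stood 0.05 above the mean of its parents on the log2 scale (SE 0.414, adjusted p = 0.948). Without the 4 arrays that stood apart, F1 minus Cop was 1.91 (adjusted p = 0.000103) and F1 minus the parents' mean 0.92 (adjusted p = 0.0133), so both became calls. All 7 pairs called for Gm2a in the fit of all arrays stayed called when any single array was left out.

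**Figure D2:**
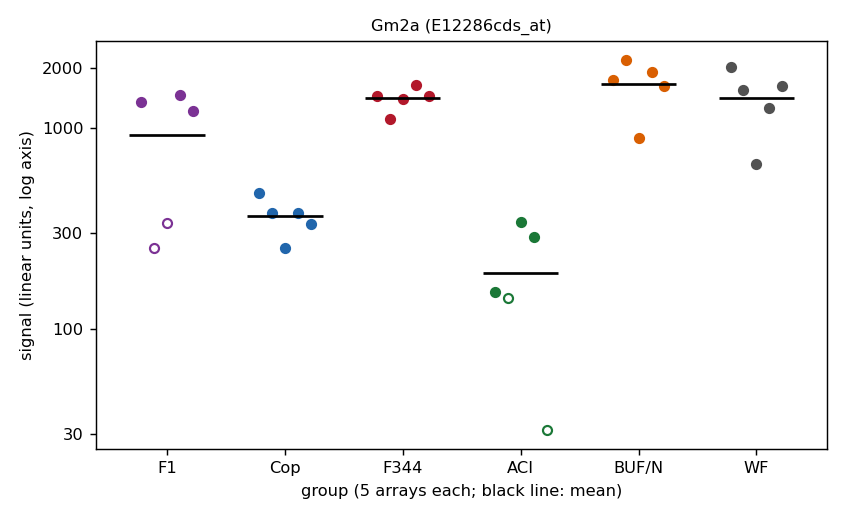
Signal of Gm2a on a log axis (linear units) for the 5 arrays of each group, in replicate order from left to right, with the group mean as a black line. Open circles are F1 2, F1 3, ACI 2 and ACI 5, the arrays that stood apart. F344, BUF/N and WF lie between 665.5 and 2196, all 10 arrays of Cop and ACI between 31.2 and 478, and F1 at both levels.

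Ctsc, the protease that activates granule serine proteases, was read by 2 probe sets named after the same source sequence, and both gave low levels in Cop. D90404_at had signals of 1467, 594, 813, 1419 and 1240.2 in F1, 427, 579, 574, 457 and 554 in Cop, and 865.5, 932, 756, 899 and 756 in F344. It had 748, 457, 545, 715 and 468 in ACI, 1376, 1237, 1341, 1350.2 and 1221 in BUF/N, and 1132, 943, 1007, 795 and 916 in WF. All 5 Cop arrays were below every F1, F344, BUF/N and WF array, and Cop and ACI overlapped. BUF/N was the tightest of the high groups, between 1221 and 1376.

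The second probe set, D90404_g_at, had signals of 528, 281, 325, 491 and 545 in F1, 323, 297, 522, 411 and 422 in Cop, and 753.5, 857, 702, 644 and 640.2 in F344. It had 598, 517, 361, 571 and 573 in ACI, 637, 709.9, 779, 736 and 725 in BUF/N, and 644, 764, 972, 892 and 733 in WF. Here Cop again lay below F344, BUF/N and WF with no overlap. The 5 F1 arrays were low as well, and their range of 281 to 545 covered that of Cop, 297 to 522.

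Both probe sets differed over the 6 groups (limma F test, adjusted p = 6.41e-06 for D90404_at and 4.21e-05 for D90404_g_at). Cop was lower than F344 by D90404_at (log2 difference -0.71, SE 0.187, adjusted p = 0.0282; means 518 ± 70.9 in Cop and 842 ± 81.6 in F344) and by D90404_g_at (log2 difference -0.89, SE 0.181, adjusted p = 0.00286). Against BUF/N, Cop was lower by 1.34 by the first (SE 0.187, adjusted p = 6.67e-06) and the log2 difference was -0.89 by the second (adjusted p = 0.000641). Cop was lower than WF by both as well (-0.89, adjusted p = 0.00149, and -1.03, adjusted p = 0.000193). ACI was below WF by both (-0.73, adjusted p = 0.0136, and -0.62, adjusted p = 0.0314), and below BUF/N by D90404_at (log2 difference -1.18, SE 0.187, adjusted p = 6.16e-05). The Cop to F344 call of D90404_at was lost without Cop 1, Cop 4, F344 1, F344 2 or F344 4 (adjusted p up to 0.0823), and its ACI to WF call without ACI 2 (0.0538). The ACI to WF call of D90404_g_at was lost without ACI 2, ACI 3, WF 2, WF 3 or WF 4 (up to 0.0926).

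The 2 probe sets of Ctsc parted in F1, and also in the pair of F344 and BUF/N. F344 was lower than BUF/N by D90404_at (log2 difference -0.64, adjusted p = 0.0159), while D90404_g_at gave no call (-0.0017, adjusted p = 0.995). By D90404_at, F1 averaged 1107 ± 385 and was higher than Cop (log2 difference 1.02, SE 0.187, adjusted p = 0.000228), higher than ACI (0.86, adjusted p = 0.00117), and above the mean of its parents (0.67, adjusted p = 0.00216). By D90404_g_at, F1 averaged 434 ± 122 and was lower than F344 (log2 difference -0.77, SE 0.181, adjusted p = 0.00211), BUF/N (-0.77, adjusted p = 0.00433) and WF (-0.92, adjusted p = 0.000965), and it did not differ past the threshold from Cop (0.11, 95% interval -0.26 to 0.48). The level of Ctsc in F1 relative to its parents therefore depends on which probe set is read.

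The log2 ratio of D90404_at to D90404_g_at was 1.32 ± 0.190 in F1, against 0.41 ± 0.335 in Cop, 0.23 ± 0.150 in F344, 0.15 ± 0.374 in ACI, 0.86 ± 0.144 in BUF/N and 0.26 ± 0.367 in WF (SD, n = 5 each). The lowest F1 ratio, 1.08, lay above the highest of Cop, F344, ACI and WF. This comparison was made after the values were seen. In 2-sided exact permutation tests, F1 differed from Cop, F344, ACI and WF with p = 0.00794 each, the smallest value that 5 against 5 allows, and 0.0446 after Benjamini-Hochberg adjustment over 45 tests of 3 genes. BUF/N also had a higher ratio than F344 and ACI, each with the same p-values.

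Without the 4 arrays that stood apart, D90404_at in F1 was higher than F344 (0.71, adjusted p = 0.000766) and WF (0.53, adjusted p = 0.0116), which it was not in the fit of all arrays (0.32, adjusted p = 0.198, and 0.13, adjusted p = 0.667). BUF/N minus WF also became a call (0.45, adjusted p = 0.0231). Under the same setting the D90404_g_at differences of F1 from F344 and BUF/N were -0.46 (adjusted p = 0.0628) and -0.46 (adjusted p = 0.0860) and were no longer called.

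**Figure D3:**
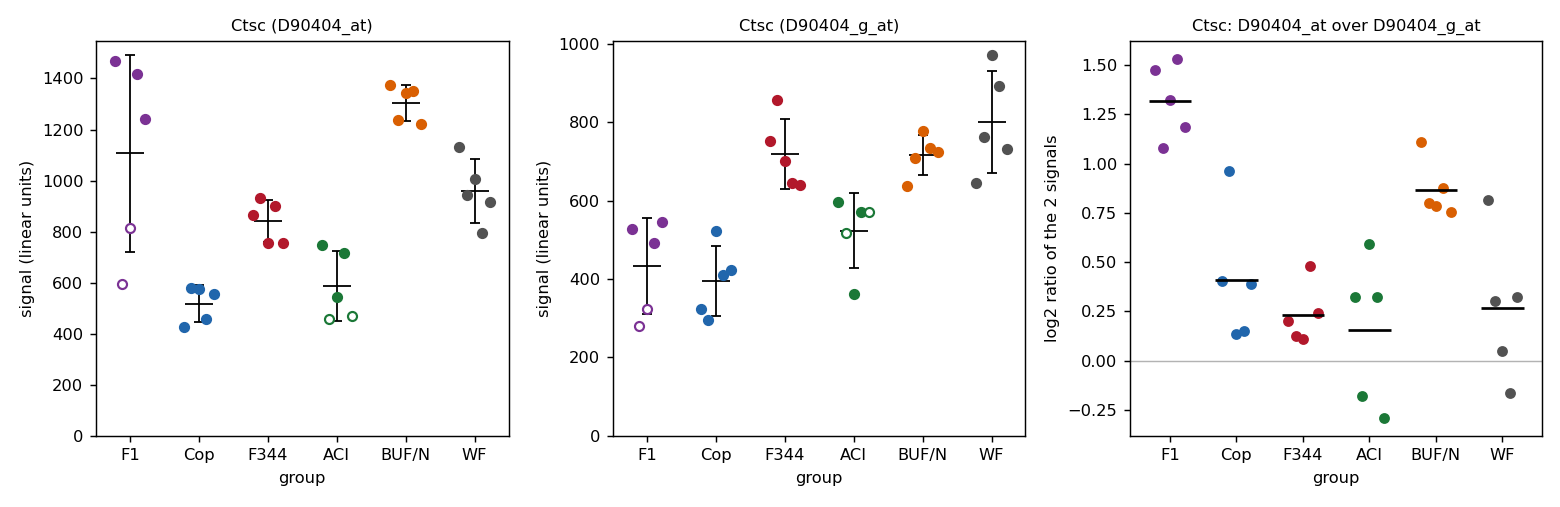
Signals (linear units) of the 2 Ctsc probe sets for the 5 arrays of each group, with mean and SD, and the log2 ratio of the 2 signals per array with the group mean as a line. Open circles are F1 2, F1 3, ACI 2 and ACI 5. F1 is high by D90404_at and low by D90404_g_at, and its ratios lie between 1.08 and 1.53.

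Luminal epithelial markers moved with Ctsc, as read by D90404_at, in several comparisons of groups. The summed signal of the 10 markers on the array, of 14 listed, ran from 5379 to 8612 in F1, 2736 to 4916 in Cop, 5063 to 7044 in F344, 4574 to 6999.9 in ACI, 7552 to 9165 in BUF/N and 7422 to 9253 in WF. Of the 9 tested, 8 were lower in Cop than in BUF/N and 8 lower than in WF, 3 lower than in F344 and 5 lower than in ACI, with none higher in Cop. In F1 7 of the 9 were higher than in Cop and none lower. Ctsc by D90404_g_at was not called between F1 and Cop (log2 difference 0.11), so there the markers went with D90404_at only. Esr1, the oestrogen receptor, was too dim on most arrays to be tested, and none of the 10 was at 0. Of 8 basal and smooth muscle markers, all tested, 5 were lower in Cop than in BUF/N (23.3% of all called) and 5 lower than in WF (12.8%). In F1 6 were higher than in Cop (26.3%), and none went the other way in these pairs. ACI, which was low for Ctsc, overlapped F344 in these sums. In bulk tissue fewer cells of a type and less RNA per cell cannot be told apart, and the part of the epithelium in the Ctsc result was not tested.

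**Figure D4:**
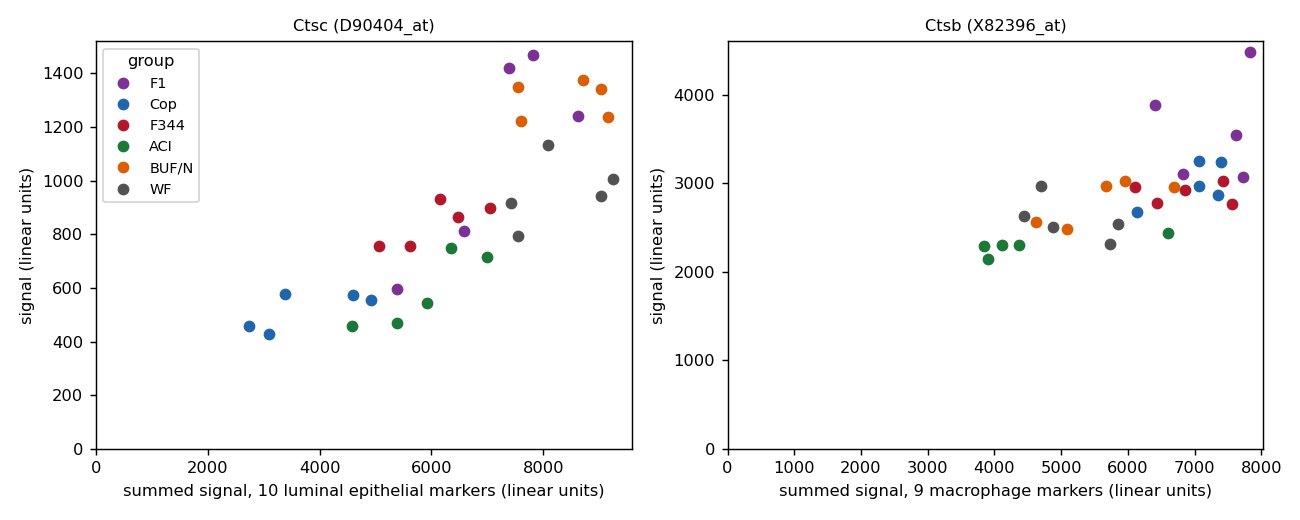
On the left the signal of Ctsc by D90404_at against the summed signal of 10 luminal epithelial markers, and on the right the signal of Ctsb against the summed signal of 9 macrophage markers, 1 point per array in linear units, coloured by group. At left Cop arrays lie at the low end of both axes and BUF/N arrays at the high end. At right 4 of the 5 ACI arrays lie at the low end of both axes.

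Ctsb, a cysteine protease of most cell types, was highest in F1 and lowest in ACI. Its signals (X82396_at) were 3543, 4485, 3885, 3071 and 3108 in F1, 2676, 2871, 3253, 3245 and 2967 in Cop, and 2957.5, 3021, 2923, 2767 and 2777 in F344. They were 2297, 2298, 2434, 2146 and 2293 in ACI, 2965, 2481, 2559, 2954 and 3020.2 in BUF/N, and 2501, 2626, 2964, 2535 and 2311 in WF. Every F1 array lay above every F344, ACI, BUF/N and WF array, while F1 and Cop overlapped, and no ACI array reached the lowest Cop or F344 array.

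Ctsb was higher in F1 than in ACI (log2 difference 0.64, SE 0.102, adjusted p = 6.14e-05), with means of 3618 ± 589 in F1 and 2294 ± 102 in ACI, and this call held in all 30 fits that left out 1 array. F1 was also higher than WF (log2 difference 0.47, SE 0.102, adjusted p = 0.00229), BUF/N (0.36, adjusted p = 0.0156), F344 (0.31, adjusted p = 0.0220) and the mean of its parents (0.28, adjusted p = 0.0136). Without F1 2, whose signal of 4485 was the highest, the last 3 were no longer called (adjusted p = 0.0664, 0.0914 and 0.0836), and without all 4 arrays that stood apart they were 0.21 (adjusted p = 0.149), 0.16 (adjusted p = 0.239) and 0.14 (adjusted p = 0.261). Cop and F344 were both higher than ACI (0.39, adjusted p = 0.0199, and 0.33, adjusted p = 0.0319), the second not without any one of 7 of the arrays compared (adjusted p up to 0.0704). With quantile normalization, only the call of F1 against ACI was kept among all these Ctsb calls. The calls of F1 against WF, BUF/N and F344 were also lost when only the arrays compared were fitted.

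Ctsl, another cysteine endopeptidase, had the same 2 groups at its ends by its brighter probe set, rc_AI176595_s_at. Signals were 2347, 2895, 2064, 2299.5 and 2045 in F1, 1926, 1915, 1813, 1639 and 2209 in Cop, and 2128.5, 2489, 2198, 1927 and 1864 in F344. The remaining groups had 1311, 1573, 1652, 1456 and 1724 in ACI, 1747.5, 1571, 1212, 2111 and 2105 in BUF/N, and 1815.5, 1553, 1991, 1755 and 1704 in WF. All ACI arrays were below all F1 and F344 arrays. F1 was higher than ACI (log2 difference 0.59, SE 0.135, adjusted p = 0.00194), which held without any 1 array, and higher than BUF/N (0.43, adjusted p = 0.0276) and WF (0.39, adjusted p = 0.0461). The WF call was lost in 17 of 30 fits that left out 1 array and the BUF/N call without F1 2, BUF/N 2 or BUF/N 3 (adjusted p up to 0.162 and 0.101). When the 4 arrays that stood apart were left out, F1 minus BUF/N was 0.38 (adjusted p = 0.0929) and F1 minus WF 0.34 (adjusted p = 0.141), and neither was called. F344 was higher than ACI (0.46, adjusted p = 0.0270), but not without F344 2, F344 3, ACI 1 or ACI 2 (up to 0.0771). The dimmer probe set S85184_g_at ran from 175 to 577 over all arrays and did not differ over the 6 groups (limma F test, adjusted p = 0.461). Its 2 lowest values, 175 and 294, were those of F1 3 and F1 2, and 294 was also the value of BUF/N 3. The log2 ratio of the brighter to the dimmer probe set was 2.74 ± 0.647 in F1 and 1.94 ± 0.0875 in ACI, without overlap. The exact permutation p was 0.00794, adjusted 0.0446 over the 45 tests. Against BUF/N and WF the adjusted p of this ratio in F1 was 0.0549 each, against Cop 0.125 and against F344 0.247.

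Ctsh, a cysteine aminopeptidase, did not pass the F test (adjusted p = 0.0965). Signals (M38135_at) were 1129.8, 1871, 1598, 969 and 1151 in F1, 968, 1417, 973, 839.5 and 1001 in Cop, and 1157, 1329.7, 1218, 926 and 954 in F344. In the other strains they were 826, 1194, 800.4, 859.9 and 1178 in ACI, 938, 840.2, 825, 918 and 1010.2 in BUF/N, and 1223, 841.5, 1019.6, 969.7 and 1095 in WF. F1 2 and F1 3 were the 2 highest of the 30, and the other F1 arrays lay within the ranges of Cop, F344, ACI and WF, while F1 1 and F1 5 were above all BUF/N arrays. F1 was higher than ACI (log2 difference 0.45, SE 0.169, adjusted p = 0.0456) and BUF/N (log2 difference 0.53, SE 0.169, adjusted p = 0.0301). The signals overlapped in both pairs. The ACI call held in 17 of 30 fits that left out 1 array, and the arrays whose removal ended it came from all 6 groups (adjusted p up to 0.169). The BUF/N call was lost without F1 2, F1 3, BUF/N 2, BUF/N 3 or BUF/N 4 (up to 0.122). With the 4 arrays that stood apart left out they were 0.38 (adjusted p = 0.145) and 0.26 (adjusted p = 0.268).

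Ctss, the cysteine protease that trims the invariant chain of MHC class II molecules in antigen-presenting cells, gave 0 calls in the 15 pairs (limma F test, adjusted p = 0.104), with 3 pairs at an unadjusted p below 0.05. Its signals (L03201_at) were 1386, 2489.9, 2063, 1369 and 1183 in F1, 1453, 2066, 1842, 1810.1 and 1689 in Cop, and 1633, 2106, 1569, 1755 and 1691 in F344. They were 1338, 1318, 1395, 1066 and 1628 in ACI, 1403, 1373, 1314, 1470.4 and 1637 in BUF/N, and 1149, 1279, 1434.5, 1516 and 1650.3 in WF. F1 2 was the highest of all arrays, and F1 1, F1 4 and F1 5 were below every Cop and F344 array. The widest difference between groups was Cop minus ACI (0.40, 95% interval 0.07 to 0.72, adjusted p = 0.124). Without the 4 arrays that stood apart, F1 was lower than Cop (-0.43, adjusted p = 0.0222) and F344 (-0.41, adjusted p = 0.0290), and Cop and F344 were higher than ACI (0.48, adjusted p = 0.0247, and 0.47, adjusted p = 0.0296) and WF (0.34, adjusted p = 0.0397 and 0.32, adjusted p = 0.04999). F1 minus the parents' mean became -0.42 (adjusted p = 0.0122) as well. Leukocyte markers were high on F1 2 too, with a summed signal of 5334 over 12 genes against 1097 to 2466 on the other F1 arrays. MHC class II pathway genes summed to 19821 on F1 2 and to 7913 to 11681 on the other F1 arrays. F1 3, which came next after F1 2 for Ctss in F1, had sums of 1809 and 10553 for these lists. Both lay within the ranges of F1 1, F1 4 and F1 5.

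Macrophage markers were also read beside these cysteine proteases. The summed signal of the 9 on the array, of 20 listed, was 6412 to 7828 in F1, 6142 to 7399.5 in Cop and 6113 to 7562 in F344, against 3837 to 6595 in ACI, 4615 to 6697 in BUF/N and 4441 to 5854 in WF. Of these 9, Csf1r and Itgam, which define macrophages and myeloid cells, were too dim to be tested, with mean signals of 31.3 and 17.8, and none was at 0. Of the 7 tested, 2 were higher in F1 than in ACI and none lower, or 28.6% called against 29.1% of all probe sets. F1 had 1 higher and 2 lower than Cop (26.3% of all called), and 1 higher and 2 lower than F344 (31.7%). It had 3 higher and 1 lower than BUF/N (17.3%), and 1 higher and none lower than WF (15.2%). Cop had 3 higher and none lower than ACI (7.58%). The summed signal of 10 endothelial and fibroblast markers was 37905 to 55402 in F1, above all arrays of Cop (29513 to 36610), F344 (27976 to 31230), ACI (27140 to 33382) and BUF/N (28919 to 37090.1), and overlapped that of WF (26370.2 to 39106). Gene by gene the 9 tested went both ways, with 3 higher and 1 lower in F1 than in Cop (median log2 difference -0.07) and 3 higher and 2 lower than in ACI (median -0.02). The part of any of these cells in the results for Ctsb, Ctsl, Ctsh and Ctss was not tested.

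Ctsd, the aspartic protease, was read by 2 probe sets that shared low levels in WF and BUF/N and parted in F1. X54467_at had signals of 1232, 1259, 1267, 1501 and 1129.9 in F1, 1279.7, 1419, 1196, 1541 and 1189 in Cop, and 1462, 1228, 1462, 1098.5 and 1387 in F344. It had 856, 956.5, 1314, 1156 and 1048.5 in ACI, 1117.5, 1207, 967, 935 and 898 in BUF/N, and 1229.8, 922, 899, 729.8 and 812.5 in WF. Every called pair overlapped, and of the 5 arrays below 900, 3 were WF, 1 ACI and 1 BUF/N.

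The second Ctsd probe set, rc_AI235585_s_at, had 953, 557, 637, 967 and 962 in F1, 1304.5, 1161, 1068, 1456 and 1198.5 in Cop, and 1592, 1349, 1289, 1252 and 1683 in F344. It had 749, 667, 1135, 1104 and 879.9 in ACI, 678, 994.5, 677, 848 and 1018 in BUF/N, and 928, 940.5, 564, 719.8 and 718 in WF. All Cop and F344 arrays were above all F1, BUF/N and WF arrays.

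Both probe sets differed over the groups (limma F test, adjusted p = 0.00437 and 0.000436). Ctsd was higher in Cop than in WF by both (log2 difference 0.54, SE 0.138, adjusted p = 0.00801; 0.69, adjusted p = 0.00974), and so was F344 (0.54, adjusted p = 0.00965, and 0.90, adjusted p = 0.00131). F344 was higher than BUF/N by both (0.37, adjusted p = 0.0486, and 0.78, adjusted p = 0.00320), as was Cop (0.37, adjusted p = 0.0497, and 0.57, adjusted p = 0.0230). The 2 calls of X54467_at against BUF/N were at the edge of the threshold, and held in 12 and 11 of 30 fits that left out 1 array.

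Adipocyte markers moved with Ctsd in several of these pairs, and skeletal muscle markers in those of F344. The summed signal of 11 adipocyte markers, of 12 listed, was 23303 to 26102 in F1, 24082 to 30672 in Cop, 23617 to 25944 in F344, 20888 to 23139 in ACI, 15416 to 20651 in BUF/N and 18175 to 26296 in WF. All 11 were tested, and 7 were higher in Cop than in BUF/N (23.3% of all probe sets called) and 4 higher than in WF (12.8%). In F344 4 were higher than in BUF/N (23.8%) and 2 higher than in WF (11.3%), with none lower in these 4 pairs. F1 had 1 higher and 6 lower than Cop (26.3% of all called). Against F344 it had 1 higher and 3 lower, or 36.4% called against 31.7% of all. Ctsd by X54467_at was not called between F1 and Cop or F344 (log2 difference -0.05 in each pair). There the adipocyte counts can be set beside rc_AI235585_s_at only. The sum of 10 skeletal muscle markers, of 12 listed, varied widely within groups, with 233 to 3324 in F1, 493 to 21953 in Cop, 4936 to 25071 in F344, 1674 to 12201 in ACI, 559 to 6474 in BUF/N and 579 to 9019 in WF. Of the 9 tested, 8 were higher in F344 than in WF (11.3% of all called) and 6 higher than in BUF/N (23.8%). All 9 were lower in F1 than in F344 (31.7%). In Cop, where Ctsd was also higher, 1 was higher than in BUF/N (23.3%) and 0 were called against WF (12.8%). Against Cop, 1 was lower in F1 (26.3%). None of either list was at 0, and the part of these cells in the Ctsd result was not tested.

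F1 was higher than WF by X54467_at (log2 difference 0.49, SE 0.138, adjusted p = 0.0158; not without WF 4, adjusted p = 0.0503) and was not called against the mean of its parents (F1 minus their mean -0.05, 95% interval -0.30 to 0.19). By rc_AI235585_s_at, F1 averaged 815 ± 201, against 1238 ± 148 in Cop and 1433 ± 193 in F344. It was lower than Cop (log2 difference -0.63, SE 0.181, adjusted p = 0.0106), F344 (log2 difference -0.84, SE 0.181, adjusted p = 0.000977) and their mean (log2 difference -0.74, SE 0.157, adjusted p = 0.000713). Without the 4 arrays that stood apart, F1 minus Cop was -0.36 (adjusted p = 0.148) and no longer called, while F1 minus F344 was -0.57 (adjusted p = 0.0237) and F1 minus the parents' mean -0.46 (adjusted p = 0.0354). The log2 ratio of the first to the second probe set was 0.68 ± 0.401 in F1 and -0.11 ± 0.174 in F344, without overlap (exact permutation p = 0.00794, adjusted 0.0446 over the 45 tests). F344 was also higher than ACI by the second probe set (0.68, adjusted p = 0.0142), though not without ACI 2 (0.0603) or without the 4 arrays that stood apart (0.54, adjusted p = 0.0594).

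Lamp1, read by its brightest probe set rc_AI233362_at, was higher in F1 and F344 than in BUF/N and WF. Signals were 2435.5, 3286, 3602, 1742 and 2023 in F1, 1912, 2433, 2096, 2225.5 and 1805 in Cop, and 2355, 2303.5, 2415, 1925 and 2093 in F344. The others were 1832, 1382, 1468.5, 2088 and 1584 in ACI, 2024, 1812, 1506, 1205 and 1234 in BUF/N, and 1658, 1514.5, 1837, 1063 and 1450 in WF. F1 2 and F1 3 were the 2 highest of all 30 arrays, and F1 4 lay below every F344 array and within the range of ACI, BUF/N and WF.

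Lamp1 was higher in F1 than in WF (log2 difference 0.77, SE 0.180, adjusted p = 0.00423), with means of 2618 ± 801 in F1 and 1505 ± 288 in WF, and than BUF/N (log2 difference 0.73, SE 0.180, adjusted p = 0.00670) and ACI (log2 difference 0.61, SE 0.180, adjusted p = 0.0125). Without the 4 arrays that stood apart these were 0.47 (adjusted p = 0.0893), 0.43 (adjusted p = 0.110) and 0.20 (adjusted p = 0.565), and none was called. F344 was higher than WF (0.58, adjusted p = 0.0340), without overlap, and than BUF/N (0.54, adjusted p = 0.0310). Each of these was lost without any one of 7 arrays (adjusted p up to 0.102 and 0.0870). Cop was not called against BUF/N (0.45, adjusted p = 0.0668) or WF (0.49, adjusted p = 0.0696). Both became calls without the 4 arrays (adjusted p = 0.0249 and 0.0219), without F1 3 alone (0.0499 and 0.0495), and with array weights, the pools added or only the arrays compared. The WF difference was also called without F1 4 (0.0496), and the BUF/N difference without BUF/N 1 (0.0338) and after centring on array medians (0.0463). The second tested probe set, rc_AA850756_at, was dim, above the overall median of 78.4 on 11 of 30 arrays, and did not differ (limma F test, adjusted p = 0.115). The 2 untested ones, rc_AA899808_at and rc_AA899808_g_at, were under that median on all 30 arrays, with signals from 4.5 to 33.7 and from 1.8 to 19.5.

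**Figure D5:**
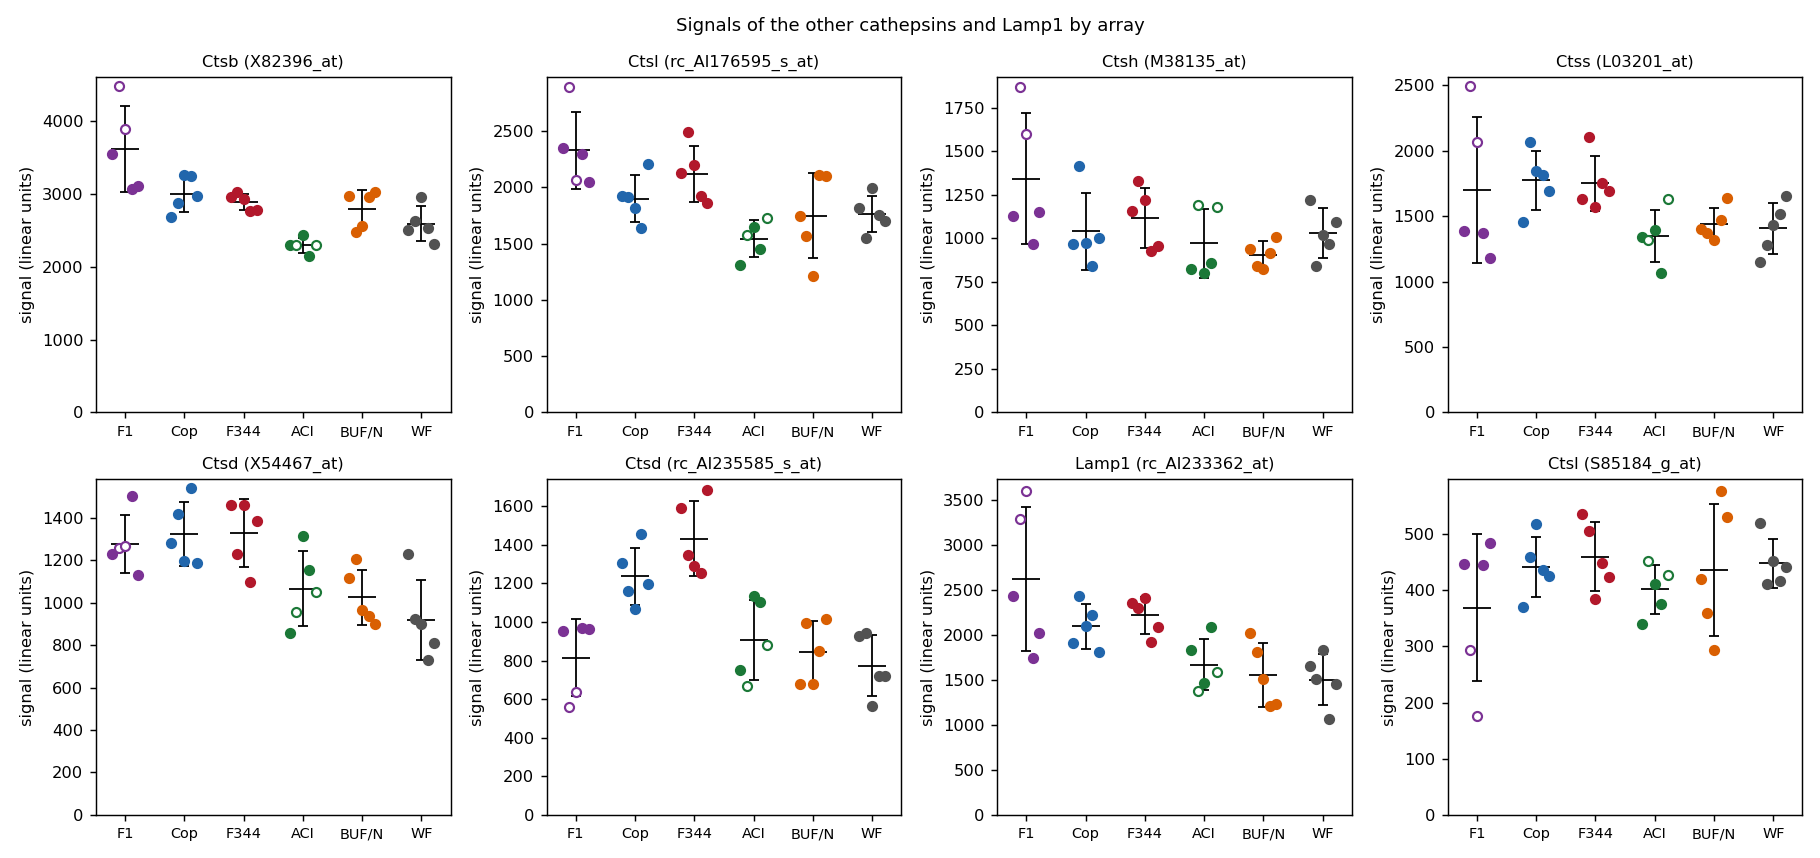
Signals in linear units of Ctsb, Ctsl, Ctsh, Ctss, Ctsd and Lamp1 for the 5 arrays of each group, with mean and SD, the 2 probe sets of Ctsd and of Ctsl in panels of their own. Open circles are F1 2, F1 3, ACI 2 and ACI 5. F1 2 is the highest of all arrays for Ctsb, Ctsl by rc_AI176595_s_at, Ctsh and Ctss, and F1 3 for Lamp1.

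Other lysosomal genes were drawn from 5 lists of 117 genes, of which 43 were on the array and 40 were tested with 1 probe set each. By the limma F test 23 of the 40 differed over the groups, or 57.5% against 51.8% of all probe sets. Between Cop and F344, 0 of the 40 were called, with 9 at an unadjusted p below 0.05. Of all probe sets only 3.45% were called in this pair, so 0 of 40 is near that share. Against the mean of its parents F1 had 14 of the 40 higher and 6 lower, 50% called against 35.2% for all probe sets, while 2 of the 12 cathepsin, Gm2a and Lamp1 probe sets were higher and 1 lower.

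Among lysosomal hydrolases and their activators 6 of 12 differed by the F test, or 50% against 51.8% of all probe sets. Psap, the precursor of the saposins and so of other sphingolipid activators, averaged 8450.1 ± 1317 in F1, against 6261 ± 602 in Cop and 5872 ± 494 in F344. It was higher in F1 than in the parents' mean (log2 difference 0.47, adjusted p = 0.000924), higher than in WF by 0.81 (adjusted p = 3.25e-05) and called in neither direction between Cop and F344. Lipa, the lysosomal acid lipase, was lower in ACI (447 ± 118) than in BUF/N (1408 ± 215; log2 difference -1.69, adjusted p = 3.85e-06), and lower in Cop (718 ± 202) than in BUF/N (-1.003, adjusted p = 0.00111). ACI and Cop were both below BUF/N for Lipa, as for Gm2a and for Ctsc by D90404_at, whereas by D90404_g_at the ACI difference from BUF/N was not called (-0.47, adjusted p = 0.0808). Grn, a lysosomal glycoprotein precursor, was higher in F1 (3462 ± 406) than in ACI (2267 ± 303; 0.61, adjusted p = 0.000414).

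Of 8 subunits of the vacuolar ATPase, the proton pump that acidifies lysosomes, 4 differed by the F test (50%, against 51.8% of all). F1 had 5 of the 8 higher than the mean of its parents and none lower (median log2 difference 0.46). This was 62.5% called, against 35.2% of all probe sets. Atp6v1a averaged 843 ± 300 in F1, 514 ± 84.4 in Cop and 473 ± 20.9 in F344, a log2 difference of 0.71 from the parents' mean (adjusted p = 0.000991), and Atp6v1b2 differed by 0.56 (adjusted p = 0.00216). Membrane and sorting genes went both ways. Of 13 genes, 9 differed by the F test (69.2%, against 51.8% of all). F1 had 3 higher and 6 lower than the parents' mean (69.2% called, against 35.2% of all). Lamp2, the companion of Lamp1 in the lysosomal membrane, was lower in F1 (856 ± 339.6) than in F344 (1345 ± 123; -0.72, adjusted p = 0.00324) and Cop (1229.8 ± 129.7; -0.59, adjusted p = 0.0146), where Lamp1 gave no call (F1 minus F344 0.19 and F1 minus Cop 0.27). Rab5a, a GTPase of early endosomes, was lower in F1 than in Cop (-1.04, adjusted p = 0.000136), and Rab7a, a GTPase of late endosomes, was higher (0.58, adjusted p = 0.0161). Scarb2, the receptor that carries glucocerebrosidase to lysosomes, was lower in F1 than in ACI (-0.91, adjusted p = 0.00281).

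Inhibitors and other proteases were few. Cst3 (cystatin C), a secreted inhibitor of cysteine cathepsins, averaged 8287 ± 1436 in F1 and 3970 ± 583 in ACI (log2 difference 1.05, adjusted p = 7.63e-06). These were the groups at the 2 ends for Ctsb and for Ctsl by rc_AI176595_s_at, but not for Ctsl by S85184_g_at. Kng2, a kininogen, was lower in F1 than in F344 (-1.77, adjusted p = 0.0159), and A2m, a broad protease inhibitor, was lower in F344 than in BUF/N (-0.68, adjusted p = 0.0111). Of the 3 other proteases tested, Cpq, a lysosomal carboxypeptidase, differed by the F test (adjusted p = 0.0351), and Ctse and Ctsk did not (0.0867 and 0.688).

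In the MHC class II pathway, in which Ctss acts, 5 of 7 genes differed by the F test (71.4%, against 51.8% of all). Ctss itself did not. RT1-Ba, a class II chain, was lower in Cop (807 ± 178) than in F344 (1779 ± 398; log2 difference -1.14, adjusted p = 0.00450), and RT1-DMa and RT1-DMb, which load peptides, were higher in F1 than in ACI (0.90, adjusted p = 0.000277, and 1.36, adjusted p = 9.05e-05). Cd74, the invariant chain itself, did not pass (adjusted p = 0.398).

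Likeness to each member's brightest probe set was measured by Pearson's r of log2 signals over the 30 arrays, among the 4202 tested probe sets with 1 symbol, and again on deviations from group means. The arrays share groups and scaling, so these values describe and carry no test. Gm2a was most like Ccng1 (r = 0.892, and 0.841 for deviations), Flot1 (0.821 and 0.466) and Ephx2 (0.813 and 0.476). Ctsc was most like Cldn3, a tight junction gene of the luminal marker list (0.917 and 0.812), Aldoc (0.848 and 0.510) and Ocln, also of tight junctions (0.837 and 0.676). For Ctsb these were Pam (0.851 and 0.783), Cr1l (0.828 and 0.580) and Use1 (0.815 and 0.602). For Ctsl they were C1r (0.824 and 0.682), Serping1 (0.804 and 0.675) and C1s (0.785 and 0.795), which encode 2 complement proteases and their inhibitor. Ctss was most like Map4k1 (0.839 and 0.763), the leukocyte tetraspanin Cd53 (0.778 and 0.840) and Ndufc2 (0.771 and 0.650). The closest to Ctsh were Rpl41 (0.787 and 0.735), Pdlim1 (0.764 and 0.677) and the lysosomal fucosidase Fuca1 (0.758 and 0.775). Ctsd had the weakest likeness, with Tspo (0.768 and 0.564), Itga7 (0.726 and 0.690) and Fah (0.697 and 0.382), and Lamp1 was most like Actb (0.804 and 0.640), Gamt (0.788 and 0.646) and Tst (0.778 and 0.795).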

How the data were processed

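Total RNA of rat mammary gland was read on Affymetrix rat arrays, 1 for each sample, from 5 µg of RNA per the labels' protocols. The deposited values are linear signal intensities that the authors made with Affymetrix Microarray Suite 5.0, per the submitters' processing notes, at 8799 probe sets (59 controls) on 32 arrays. Their 2% trimmed means lay between 250.3 and 250.4, so arrays were already scaled to 1 target, and signals printed are the deposited ones. Arrays have no read depth, and their number limits the precision.

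Arrays were scaled to a common trimmed mean, floored at the 25th percentile (18.3) and log2 transformed. Probe sets above the overall median of 78.4 on at least 5 of the 30 single-sample arrays were tested. One limma fit (version 3.58.1, R 4.3.3) took the 6 group means (variance trend, 29.6 degrees of freedom, no covariates, pools left out), with Benjamini-Hochberg adjustment within each contrast at 0.05. Contrasts were the 15 pairs, F1 minus the mean of Cop and F344, and the F test. Gene symbols came from the platform table, matched by gene ID to RefSeq for 6994 of 7018 probe sets with 1 symbol. Another 308 had several symbols and were not named. In each other list up to 3 genes with the smallest F test p are named, plus Cst3, Cd74, Lamp2 and Psap. The genes and lists were chosen with earlier results of these data known. The fit was tested on simulated data with known changes. In F344 minus ACI it recovered 26.9% of 1.5-fold, 82.1% of 2-fold and 100% of 4-fold changes. Most changes of 1.5-fold were thus missed, and a pair that was not called is no sign of equal levels.

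Each choice was also changed on its own: the floor (10th or 40th percentile, or none but an added 50), the filter (none, or 15 arrays), the scaling (quantile, or array medians), the model (replicate block, array weights, no variance trend, only the arrays compared), the threshold (0.01), and the arrays (pools added as a sixth sample, F1 2, F1 3, ACI 2 and ACI 5 left out together, and each array left out).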

Additional observations from a re-analysis of the deposited data

Results flagged for a closer look

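Within groups of 5 arrays, a value was singled out where its gap to the nearest other array exceeded 0.71 of the group's whole range. Of 84 groups over the 14 probe sets, 3 had such a value, and chance gives about 1 in 20. Ctsh (M38135_at) was high on Cop 2, at 1417, where the next Cop array had 1001 (gap over range 0.721). Lamp1 by rc_AA899808_g_at, a probe set too dim to be tested, had 19.5 on F1 2 with the next F1 array at 6.5 (0.828), and 12.1 on Cop 3 with the next Cop array at 4.3 (0.757). Of these 3 values, the Lamp1 signal on Cop 3 and that of Ctsh on Cop 2 are on arrays that did not stand apart from their group.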

How the results depend on the processing

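No result changed direction past the threshold under any alternative run. The count of tested probe sets that differed by the F test, 8, was 8 to 9 with 1 array left out and 8 to 11 under the other settings. The calls over the 15 pairs, 51, ranged from 43 to 55 with 1 array left out, and under the other settings from 28 at a threshold of 0.01 to 72 after centring on array medians. The probe sets with F1 off the mean of its parents, 3, numbered 2 to 5 with 1 array left out (5 without F1 5) and 5 with array weights. The 23 other lysosomal genes, of 40 tested, ranged from 21 to 26 with 1 array left out. They were 13 at a threshold of 0.01 and 27 with array weights. With every tested probe set of these genes counted, 32 of 62 differed, where 51.8% of all probe sets did. Of the 54 calls in pairs and against the parents' mean, 54 were kept under both other floors, the offset, the filter of 15 arrays and with the pools, 48 without a filter, 41 with quantile normalization, 53 after centring on array medians (with 23 gained), 50 with array weights (22 gained), 50 without a variance trend, 41 with only the arrays compared, and 40 without F1 2, F1 3, ACI 2 and ACI 5 (14 gained). After centring, Ctss differed over the groups (adjusted p = 0.00631), as did Ctsh (0.00287), and the Ctsc call of F344 against BUF/N by D90404_at was lost. Quantile normalization ended the F test call of Ctsl (adjusted p = 0.0929). The cause of these changes was not tested.

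Replicate numbers are shared between groups, but same-numbered samples did not vary together: over 75 pairs the correlation of deviations ran from -0.45 to 0.40 (median -0.02), and 16 exceeded 0.1. With the replicate number as a block the 4 counts were 8, 48, 3 and 23, and the 3 calls lost were Ctsl in F1 against WF and Ctsd by X54467_at in Cop and in F344 against BUF/N.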

Other observations

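The pool of Cop and the pool of F344 were 1 array each and entered no test. Gm2a had a signal of 501 in the Cop pool and 1521 in the F344 pool, a log2 difference of -1.60, where the single samples differed by -1.98. Ctsc by D90404_at had 509 in the Cop pool and 819 in the F344 pool (-0.69, against -0.71 in the single samples), and by D90404_g_at 511.5 and 623 (-0.29, against -0.89). For the remaining 9 tested probe sets the pools differed by -0.22 to 0.04 on the log2 scale. How many samples each pool held, and whether the single samples were among them, is not given in the sources used here.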
